A study of Rattus norvegicus with 4 samples.

Results

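Prostanoid synthases and receptors were read as 10 rat genes: the cyclooxygenases Ptgs1 and Ptgs2, the terminal synthases Ptges, Ptgis, Ptgds and Tbxas1, and the receptors Tbxa2r, Ptgir, Ptger2 and Ptger4. They were found by matching the RefSeq accession of each array probe to these gene symbols, which gave 13 of the 45594 probes and 10 of the 16580 named genes. The study hybridised RNA of rat vessels to 1-colour Agilent arrays, with 1 array in each of 4 groups. The groups were male rats with a PKCbeta deletion (KO) given angiotensin II (Ang II), the KO control, male Wistar rats (WT) given Ang II, and the WT control. The design text gives 24 h of Ang II, applied after the vessels were isolated, and 4 rats of each genotype. It does not give the vessel bed, the rats' age, how the deletion was made, or whether the RNA of several rats was pooled on an array.

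Angiotensin II is a vasoconstrictor peptide hormone, and PKC-beta is a protein kinase that acts downstream of its receptor. Prostanoids are short-lived lipid mediators. Cyclooxygenases turn arachidonate, released from membranes by phospholipases, into prostaglandin H, and terminal synthases turn that into prostaglandin E, prostacyclin, prostaglandin D or thromboxane. In the vessel wall prostacyclin relaxes smooth muscle and holds back platelets, thromboxane contracts smooth muscle and activates platelets, and prostaglandin E acts in either direction depending on its receptor.

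The promoters of Ptges and Ptgs2 are shown because these genes encode the inducible enzymes among the members. They are the 250 bases before and 50 bases after the start site in RefSeq (build GRCr8), and 9 of the 10 members had such an entry. Capitals mark matches to 5 short motifs and the NF-kB consensus, searched on both strands. The motifs were TATAAA (the TATA box), TGACG (the core of the cyclic AMP response element), CACGTG (an E-box), CCAAT (the CCAAT box) and GGGCGG (the core of a GC box). CACGTG reads the same on both strands, and in these sequences no match overlapped another. The Ptges promoter lies at chr3:34586938-34587237 on the minus strand and the Ptgs2 promoter at chr13:64713813-64714112 on the plus strand.
Ptges: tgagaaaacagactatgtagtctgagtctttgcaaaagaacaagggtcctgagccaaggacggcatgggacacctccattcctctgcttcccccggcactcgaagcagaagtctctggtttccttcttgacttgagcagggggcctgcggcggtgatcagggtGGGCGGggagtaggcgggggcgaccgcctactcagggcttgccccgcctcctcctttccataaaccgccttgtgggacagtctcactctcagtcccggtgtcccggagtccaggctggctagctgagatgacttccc
Ptgs2: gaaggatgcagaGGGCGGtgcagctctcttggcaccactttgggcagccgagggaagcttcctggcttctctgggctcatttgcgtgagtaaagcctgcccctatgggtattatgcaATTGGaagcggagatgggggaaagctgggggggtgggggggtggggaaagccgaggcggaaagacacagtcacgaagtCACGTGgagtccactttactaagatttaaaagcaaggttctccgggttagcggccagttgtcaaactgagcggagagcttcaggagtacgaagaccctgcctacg
Ptges held GGGCGG 87 bases before its start site. Ptgs2 held GGGCGG 238 bases before its start site, CCAAT on the minus strand 133 bases before it, and CACGTG 55 bases before it. GGGCGG was in 33.1% of 33469 rat promoters of this length and in 4 of the 9 member promoters (Ptgds, Ptges, Ptgir and Ptgs2). CACGTG was in 6.42% of all promoters, CCAAT in 37.5% and TATAAA in 14.2%; each was in 1 of the 9, which was Tbxas1 for TATAAA and Ptgs2 for CACGTG and CCAAT. The motif TGACG, in 21.2% of all promoters, and the NF-kB consensus, in 4.18%, were in none of the 9 windows. A match is a description of letters, not a bound site.

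Signals are given as relative signals, the scanner's processed signal divided by the 75th percentile of all probes on the same array, and a log2 ratio is the difference of their log2 values between arrays. Ratios compare a probe with itself between arrays. A gene was taken as measured on an array where the scanner called its probe well above background, and otherwise its signal there gave only a bound. A bound sets the measured signal against the higher of 2 values on the other array: the probe's own signal, and the lowest signal among probes well above background. The error after ± is the scanner's own error estimate for the signal (n = 1 array), which covers technical error within an array and not the spread between rats. With 1 array in each group no difference between groups had a replicate check, so a ratio of at least 2-fold was used as a size rule and carries no p-value.

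The scanner called 41.5% of probes well above background on the KO Ang II array, 40.7% on KO control, 43.5% on WT Ang II and 43.6% on WT control, and no probe was saturated. All 4 arrays lay on 1 slide and were scanned together, so each group differed from the others in its slide position, and position and group cannot be told apart. Prkcb, which encodes PKC-beta, had processed signals of 1.88 on KO Ang II and 1.93 on KO control, both not well above background, against 17.8 on WT Ang II and 14.7 on WT control, both well above it. It was at least 1.81-fold lower in KO Ang II than in WT Ang II and at least 1.43-fold lower in KO control than in WT control. Whether its probes lie in the deleted part is not given. Of the smooth muscle markers 7 of 7 were well above background on every array, of the endothelial markers 6 of 8, of the macrophage markers 7 or 8 of 9, of the fibroblast markers 5 of 6, and of the platelet markers 2 of 7. Only 5 of the 6 fibroblast markers and 5 of the 7 platelet markers had a matched probe, so the rest could not be read. Of the neutrophil markers 0 of 5 were well above background on any array. Among macrophage markers Mrc1 was not well above background on any array, among endothelial markers Tie1 and Emcn, and among platelet markers Ppbp, Gp9 and Treml1. In whole tissue, fewer cells of a type and less RNA per cell cannot be told apart.

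Of the 10 genes, 8 passed the background call on some array and 7 on all 4. Of the 16580 named genes, 9966 passed it on some array and 8600 on all 4. Ptgds and Ptger2 were not well above background on any array, and Tbxa2r was well above it only on WT control. The 7 were Ptgs1, Ptgs2, Ptges, Ptgis, Tbxas1, Ptgir and Ptger4. Over the 4 arrays their log2 signals spanned 1.72 for Ptges, 1.34 for Ptgs1, 0.87 for Ptgir, 0.81 for Ptgs2, 0.79 for Ptger4, 0.36 for Tbxas1 and 0.30 for Ptgis, beside a median span of 0.50 over the 8600 genes that every array measured. The median log2 ratio over the members was 0.00 for KO Ang II over KO control, 0.15 for WT Ang II over WT control, 0.05 for KO control over WT control and -0.31 for KO Ang II over WT Ang II, beside -0.00, 0.04, 0.01 and -0.04 over all genes. Of the 8600 genes 1.27% had a larger span than Ptges and 3.77% a larger one than Ptgs1.

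**Figure D1:**
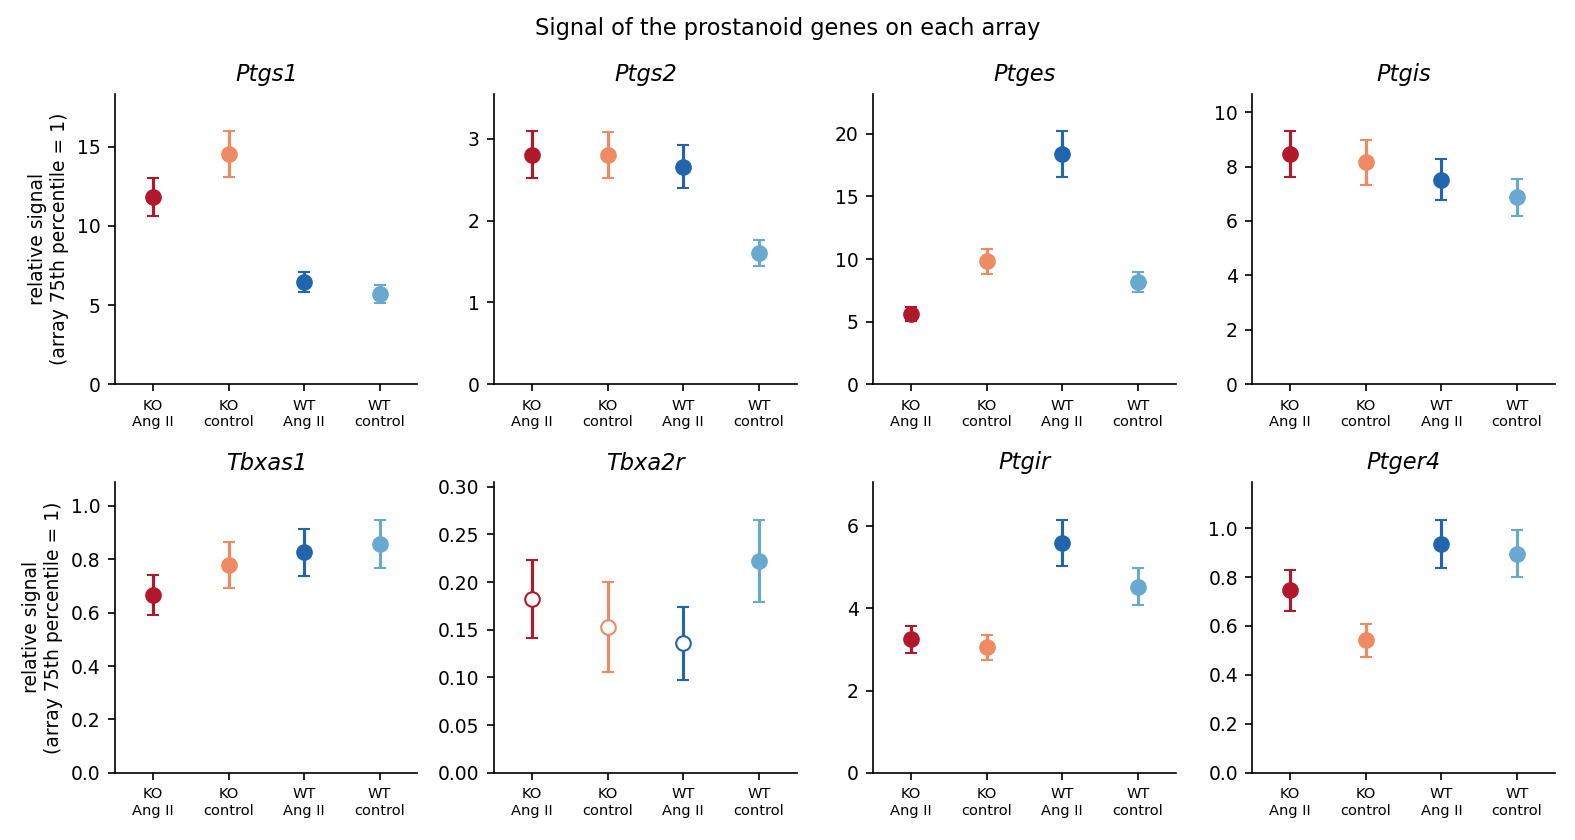
Relative signal of the 8 members well above background somewhere, on each of the 4 arrays, with the scanner's error as bars and open symbols for signals not well above background. Ptges stood highest on the WT Ang II array at 18.4 and lowest on KO Ang II at 5.58, and Ptgs1 stood higher on both KO arrays than on both WT arrays.

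Ptges, the inducible synthase that makes prostaglandin E, was higher in WT Ang II than in WT control and lower in KO Ang II than in KO control. Its relative signal was 5.58 ± 0.559 in KO Ang II, 9.82 ± 0.983 in KO control, 18.4 ± 1.84 in WT Ang II and 8.17 ± 0.817 in WT control. The WT Ang II array was the highest and the KO Ang II array the lowest, with the control arrays between them. WT Ang II was 2.25-fold higher than WT control (log2 ratio 1.17), the 52nd highest ratio of 9122 genes measured on both arrays. Of the 8 members with a value, 1 was at least 2-fold higher in this comparison, beside 1.43% of all genes, and 0 were at least 2-fold lower, beside 0.888% (2.32% in either direction).

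In KO vessels the ratio of Ptges ran the other way. KO Ang II was 1.76-fold lower than KO control (log2 ratio -0.82), and 0 of 7 members were past 2-fold in either direction, beside 0.963% of all genes. The KO log2 response minus the WT log2 response was -1.98, a 3.96-fold difference, the 8th lowest of 8600 genes. In that measure 1 of 7 members was at least 2-fold lower, beside 2.87% of all genes (4.14% in either direction). Without Ang II, Ptges was close in both genotypes, at a log2 ratio of 0.27 for KO control over WT control with a scanner error of 0.20. With Ang II it was 3.29-fold lower in KO than in WT (log2 ratio -1.72), where 1 of 7 members was at least 2-fold lower, beside 4.42% of all genes (6.26% in either direction). The macrophage markers summed to relative signals of 35.6 in KO Ang II, 29.3 in KO control, 63.9 in WT Ang II and 55.9 in WT control, and the fibroblast markers to 267 in KO Ang II, 298 in KO control, 404 in WT Ang II and 376 in WT control. Both sums were highest in WT Ang II, as Ptges was. The macrophage sum was lowest in KO control, and the fibroblast sum was lowest in KO Ang II, where Ptges was lowest. Marker by marker, 4 of 8 macrophage markers were above 0 and 4 below for WT Ang II over WT control (median 0.02), with Adgre1 at 0.73 and Cd163 at -1.66. In that comparison 4 of 5 fibroblast markers were above 0 (median 0.16). For KO Ang II over KO control 7 of 8 macrophage markers were above 0 (median 0.20), and 1 of 5 fibroblast markers was (median -0.23). Red cell markers summed to 28.9 in KO Ang II, 20.4 in KO control, 34.1 in WT Ang II and 19.2 in WT control, and 4 of 4 were above 0 for WT Ang II over WT control (median 0.78) and 3 of 3 for KO Ang II over KO control (median 0.54). The part of these cells in the Ptges values was not tested. With normexp background correction the WT ratio of Ptges was 0.87, under 2-fold.

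**Figure D2:**
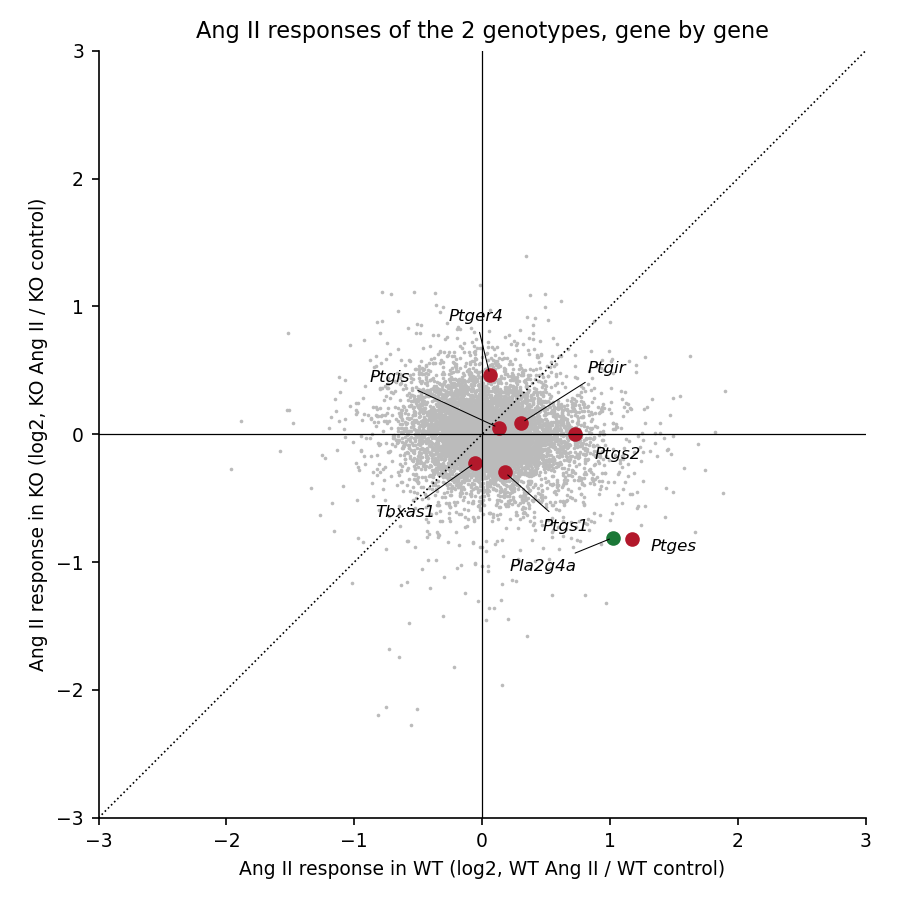
Log2 ratio of Ang II over control in KO (vertical axis) against that in WT (horizontal axis), with the 7 members measured on all 4 arrays in red, Pla2g4a in green, the other genes among the 8600 in grey and equal responses on the dotted line. Ptges lies at -0.82 in KO and 1.17 in WT, and the other members lie between -0.30 and 0.46 in KO.

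Ptgs1, the constitutive cyclooxygenase (COX-1), was higher in KO than in WT vessels, with and without Ang II. Its relative signal was 11.8 ± 1.18 in KO Ang II, 14.5 ± 1.45 in KO control, 6.46 ± 0.647 in WT Ang II and 5.72 ± 0.573 in WT control. Both KO arrays read higher than both WT arrays. The share of all genes separated in this way was not counted, so this order is not read as particular to Ptgs1. The probe had 2 spots on each array, whose processed signals were 559 and 678 in KO Ang II, 682 and 691 in KO control, 387 and 420 in WT Ang II, and 332 and 339 in WT control. KO control was 2.54-fold higher than WT control (log2 ratio 1.34), the 54th highest ratio of 8770 genes, and 1 of 8 members was at least 2-fold higher, beside 2.4% of all genes, and 0 were at least 2-fold lower, beside 3.32% (5.72% in either direction). KO Ang II was 1.83-fold higher than WT Ang II (log2 ratio 0.87), under 2-fold. The log2 ratio of Ang II over control was -0.30 in KO and 0.18 in WT, each with a scanner error of 0.20.

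A second Ptgs1 probe was also higher in KO than in WT vessels. Its relative signal was 0.314 in KO Ang II and 0.417 in KO control, both well above background, against 0.111 in WT Ang II and 0.107 in WT control, both not. It was at least 2.48-fold higher in KO Ang II than in WT Ang II, and at least 3.07-fold higher in KO control than in WT control. When the readings of both probes were averaged, the ratio of KO Ang II over WT Ang II was 1.18 on the log2 scale and passed 2-fold. Smooth muscle markers summed to 194 in KO Ang II, 174 in KO control, 124 in WT Ang II and 139 in WT control, so their sum was also higher in KO. Marker by marker, 6 of 7 were above 0 for KO control over WT control (median 0.55), with Des at -1.11. For KO Ang II over WT Ang II 6 of 7 were above 0 (median 0.58). Their part in the Ptgs1 values was not tested.

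Ptgs2, the inducible cyclooxygenase (COX-2), was lowest in WT control and close on the other 3 arrays. Its relative signal was 2.81 ± 0.282 in KO Ang II, 2.80 ± 0.283 in KO control, 2.66 ± 0.267 in WT Ang II and 1.60 ± 0.163 in WT control. WT Ang II was 1.66-fold higher than WT control (log2 ratio 0.73), while KO Ang II over KO control was 0.00 on the log2 scale. KO control over WT control was 0.80, and KO Ang II over WT Ang II was 0.08. None of these ratios reached 2-fold, though 0.73 and 0.80 were above the scanner error of 0.21 by more than 3 times.

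Ptgis, which makes prostacyclin, and Tbxas1, which makes thromboxane, differed little between arrays. Ptgis had relative signals of 8.44 ± 0.845 in KO Ang II, 8.15 ± 0.817 in KO control, 7.51 ± 0.752 in WT Ang II and 6.87 ± 0.687 in WT control, and neighbours in that order differed by less than their scanner errors. Tbxas1 had 0.668 ± 0.0748 in KO Ang II, 0.779 ± 0.0869 in KO control, 0.826 ± 0.0873 in WT Ang II and 0.857 ± 0.0904 in WT control, and its largest log2 ratio between genotypes was -0.31, for KO Ang II over WT Ang II. A second Tbxas1 probe was not well above background on any array. Ptgds, which makes prostaglandin D, was read by 10 spots on each array (1 left out as an outlier in WT Ang II) and was not well above background on any, with processed signals of 1.71 to 4.83 in KO Ang II, 2.21 to 7.18 in KO control, 3.06 to 6.40 in WT Ang II and 1.77 to 8.79 in WT control, so no ratio is given for it.

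Ptgir and Ptger4, receptors that raise cyclic AMP, read lower in KO than in WT vessels. For Ptger4 with Ang II the gap was under 2 times the scanner error. Ptgir, the prostacyclin receptor, had relative signals of 3.24 ± 0.326 in KO Ang II, 3.05 ± 0.307 in KO control, 5.59 ± 0.560 in WT Ang II and 4.52 ± 0.453 in WT control. Both KO arrays read lower than both WT arrays. The share of all genes separated in this way was not counted, so this order is not read as particular to Ptgir. The log2 ratios of KO over WT were -0.79 with Ang II and -0.57 without it. For Ang II over control its log2 ratios were 0.09 in KO and 0.31 in WT. Ptger4, a prostaglandin E receptor, had 0.746 ± 0.0838 in KO Ang II, 0.542 ± 0.0677 in KO control, 0.935 ± 0.0983 in WT Ang II and 0.896 ± 0.0961 in WT control. Its log2 ratios of KO over WT were -0.33 with Ang II (scanner error 0.22) and -0.73 without it (scanner error 0.24). For Ang II over control they were 0.46 in KO (scanner error 0.24) and 0.06 in WT (scanner error 0.22). All these ratios stayed under 2-fold, and with normexp background correction the ratio of KO control over WT control was -0.24 and that of KO Ang II over KO control was 0.16. Its second probe was not well above background on any array.

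Tbxa2r, the thromboxane receptor, had 0.183 in KO Ang II, 0.153 in KO control and 0.136 in WT Ang II, all not well above background, against 0.222 in WT control, which was. As bounds, WT Ang II was 1.64-fold lower than WT control, and KO control 1.26-fold lower than WT control. On the log2 scale these were -0.71 with a scanner error of 0.49, and -0.34 with a scanner error of 0.53. The bound for KO control was thus smaller than its error. Ptger2, another prostaglandin E receptor, was not well above background on any array.

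**Figure D3:**
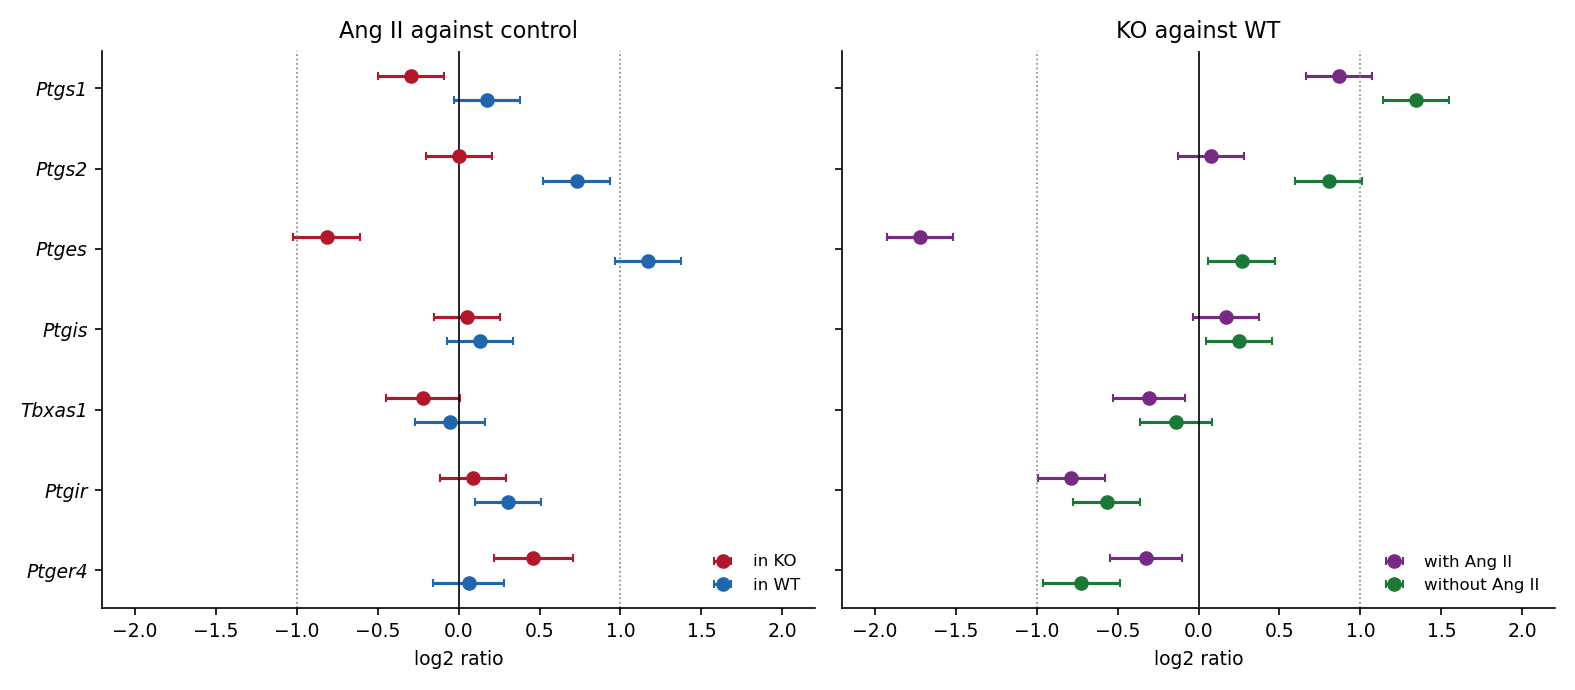
Log2 ratios (horizontal axes) of the 7 members measured on all 4 arrays, for Ang II over control in KO and in WT (left) and for KO over WT with and without Ang II (right); bars show the scanner's error and dotted lines 2-fold. Ptges passes 2-fold for WT Ang II over WT control and for KO Ang II over WT Ang II, and Ptgs1 passes it for KO control over WT control.

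A fit of genotype plus Ang II across the 9387 genes that 2 or more arrays measured left 1 residual degree of freedom, and it takes the genotype difference in the Ang II response as error. For KO over WT, limma's adjusted p (Benjamini-Hochberg) was 0.106 for Ptgs1 (log2 difference 1.11, SE 0.19), 0.122 for Ptgir (-0.68, SE 0.16) and 0.177 for Ptger4 (-0.53, SE 0.18), and each had the same direction in both pairs of arrays. No gene passed the adjusted threshold (0.0% of all genes). Of the 9387 genes, 2459 had an unadjusted p under 0.05 in limma, 3 of the 7 members among them. For Ang II over control no gene passed the adjusted threshold (0.0% of all genes). There 360 of the 9387 genes and 0 of the 7 members had an unadjusted p under 0.05 in limma. With so few members, neither count of members is read as a result about them. With a trended, robust variance limma called 2 members for KO over WT (Ptgs1, adjusted p 0.00466, and Ptgir, adjusted p 0.0226) along with 1316 genes, 14% of those tested.

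Pla2g4a, the cytosolic phospholipase A2 that releases arachidonate, had the pattern closest to Ptges. Among 8535 named genes measured on all 4 arrays, the 3 with the smallest root mean square log2 difference from the Ptges pattern over the 4 arrays, after centring, were Pla2g4a at 0.107, Dnmbp at 0.117 and Fbxo27 at 0.120. Pla2g4a had relative signals of 0.610 in KO Ang II, 1.07 in KO control, 1.67 in WT Ang II and 0.820 in WT control. Its log2 ratio was 1.03 for WT Ang II over WT control and -0.81 for KO Ang II over KO control. For Ptgs1 the closest were Zfp790l2 at 0.031, Niban1 at 0.031 and Mrpl38 at 0.047. With 4 points such a likeness is a description.

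**Figure D4:**
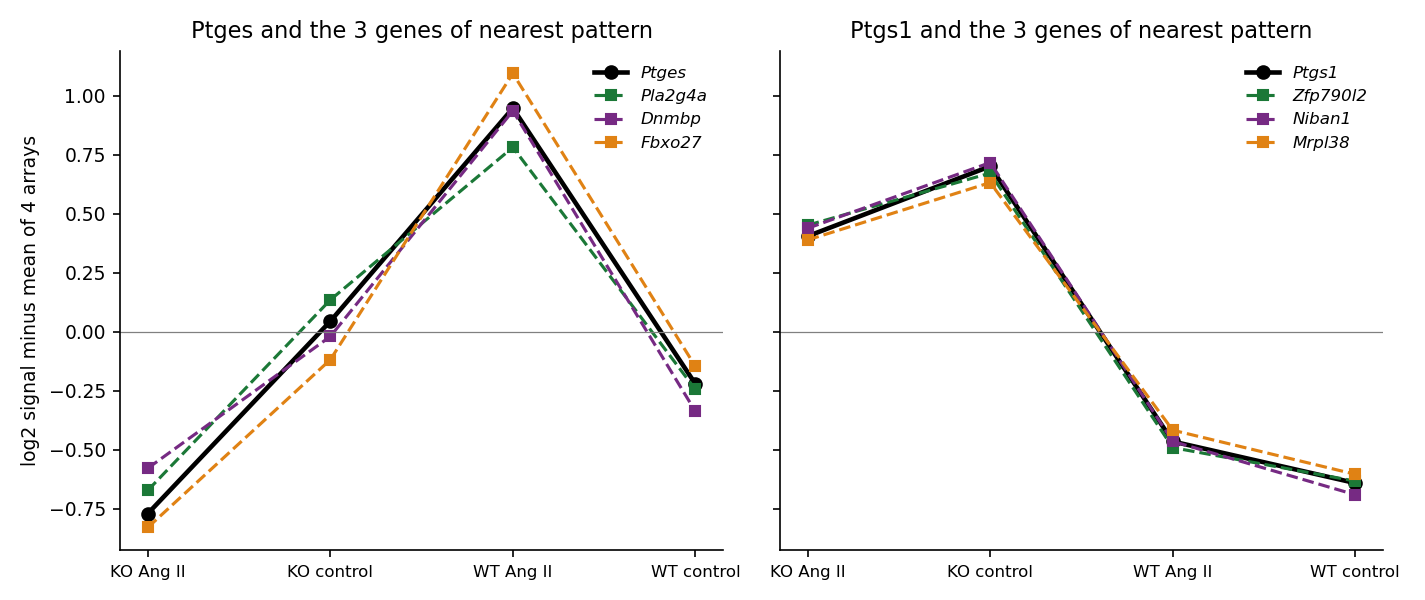
Log2 signal minus its mean over the 4 arrays (vertical axis) on each array for Ptges and Ptgs1, each with the 3 genes of closest pattern. Pla2g4a has its highest value on WT Ang II and its lowest on KO Ang II, as Ptges does.

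The other genes of the pathway were read as lists. These were chosen with earlier results of these data known, so their counts beside all genes are a description. Of 10 arachidonate release genes with a value, 1 (Pla2g4a) was at least 2-fold higher in WT Ang II than in WT control, beside 1.43% of all genes. In KO Ang II against WT Ang II 2 of 8 were at least 2-fold lower, beside 4.42% of all genes: Pla2g4a at a log2 ratio of -1.45 and Acsl4, which activates arachidonate, at -1.13. The list's median there was -0.47, beside -0.04 over all genes. None of the other prostanoid synthases was past 2-fold in these comparisons; Cbr1, a carbonyl reductase, had log2 ratios of KO over WT of -0.75 with Ang II and -0.74 without it.

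Genes of prostanoid breakdown and transport were lower in KO Ang II than in WT Ang II in 6 of 6 cases, with a median log2 ratio of -0.48, beside -0.04 over all genes, and 2 of 6 were at least 2-fold lower, beside 4.42%. Slco2a1, the prostaglandin transporter, had relative signals of 3.43 in KO Ang II, 4.01 in KO control, 8.23 in WT Ang II and 8.43 in WT control, so KO was 2.40-fold lower than WT with Ang II and 2.10-fold lower without it. Hpgd, which starts prostaglandin breakdown, was not well above background on any array. Ptgr1, a prostaglandin reductase, was 2.40-fold lower in KO Ang II than in WT Ang II. Of the other receptors and partners, Ptgfrn, a partner of the prostaglandin F receptor, was 2.05-fold lower in KO Ang II than in WT Ang II. In the leukotriene arm only 3 of 13 genes had a value for KO against WT. Alox5, the leukotriene-forming lipoxygenase, was at least 2.53-fold lower with Ang II and at least 3.22-fold lower without it, and Cyp2j4, a cytochrome P450, was 2.07-fold lower without it. In the same comparisons 7 of 8 macrophage markers were below 0 with Ang II (median -0.30) and 7 of 7 without it (median -1.08, 4 of them at least 2-fold lower), and their part in these values and in those of Tnf and Il1a was not tested.

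Regulators of the inducible enzymes were above 0 in 16 of 19 cases for WT Ang II over WT control, with a median of 0.39 beside 0.04 over all genes. For KO Ang II over KO control 10 of 18 were above 0 and the median was 0.02. Tnf, an inflammatory cytokine, had relative signals of 0.859 in KO Ang II, 0.571 in KO control, 3.96 in WT Ang II and 1.96 in WT control, and was 4.61-fold lower in KO Ang II than in WT Ang II, where 7 of 8 macrophage markers were also below 0. Il1a, an interleukin that induces cyclooxygenase, was 2.89-fold lower in that comparison. Il1r2, the interleukin decoy receptor, was at least 2.27-fold lower in it. Zfp36, which destabilises inflammatory mRNAs, was at least 2.02-fold lower in WT Ang II than in WT control.

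The last list held genes that respond to cyclic AMP, together with phosphodiesterases, enzymes that break it down. Like the other lists it was chosen with earlier results of these data known, so its counts beside all genes are a description. Of its 10 genes with a value, 5 were at least 2-fold higher in KO control than in WT control, beside 2.4% of all genes. The list's median there was 1.02. The 5 were Crem, Nr4a1, Nr4a2, Nr4a3 and Sik1, transcription regulators and a kinase. The call of Crem depended on the probe. The probe used read 1.16 there, and other Crem probes well above background on all 4 arrays read 0.80, 0.90 and 0.32. A further Crem probe, well above background on 3 arrays, read 2.46. A link of these values to cyclic AMP was not tested. In the KO response minus the WT response 4 of the list's 10 genes were at least 2-fold lower, beside 2.87% of all genes. The list's median was -0.87, beside -0.05 over all genes. This measure holds the difference between the control arrays with its sign reversed, so it is not a separate result. For KO Ang II over WT Ang II the list's median was -0.00, with 5 genes above 0 and 5 below. Nr4a1 had relative signals of 18.8 in KO Ang II, 27.7 in KO control, 27.6 in WT Ang II and 11.9 in WT control. Fosb was 2.21-fold higher in KO Ang II than in WT Ang II.

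**Figure D5:**
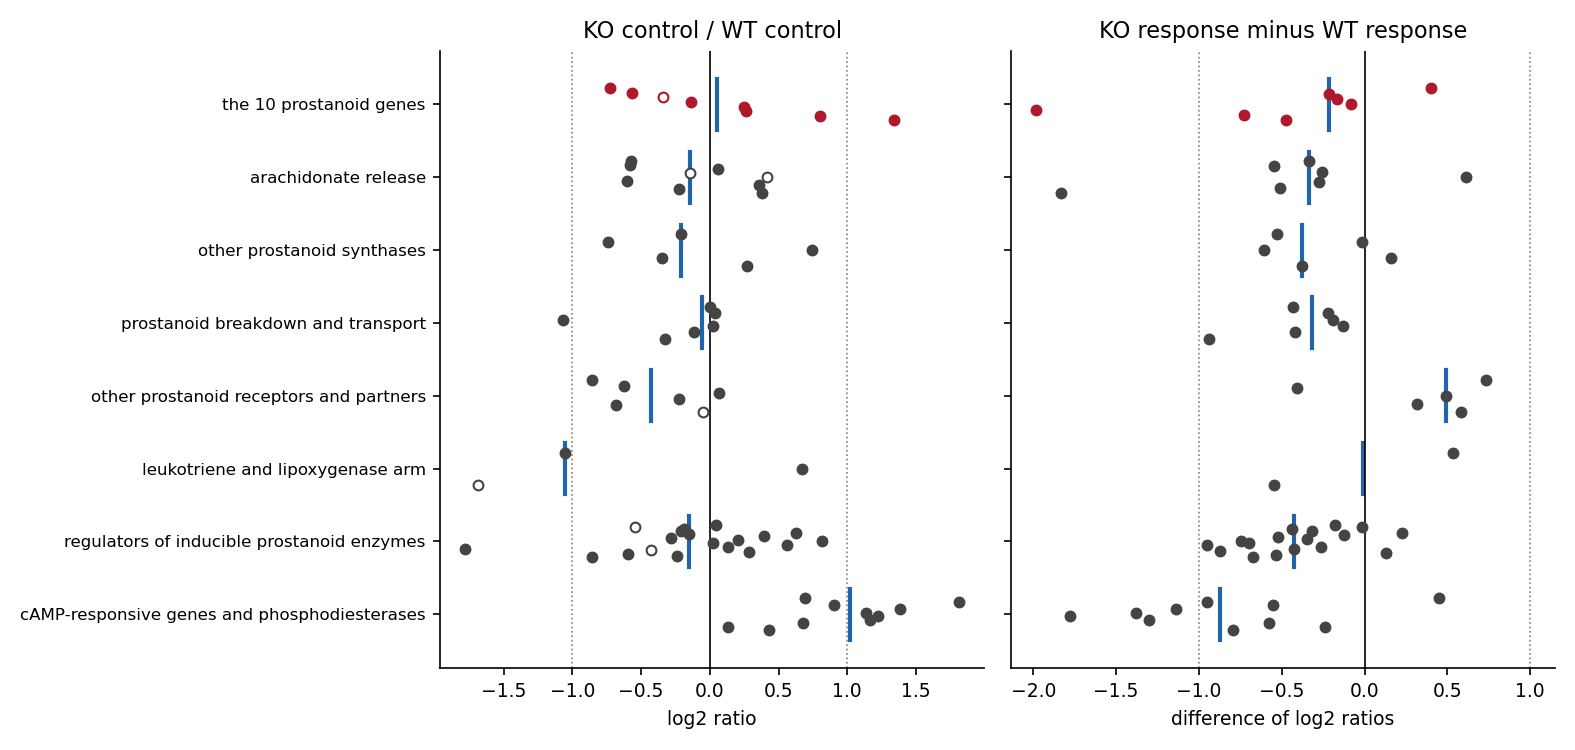
Log2 ratio of KO control over WT control (left) and KO response minus WT response (right) for each gene of the members and the pathway lists, with open circles for bounds, blue bars for list medians and dotted lines for 2-fold. The list of cyclic AMP-responsive genes and phosphodiesterases has a median of 1.02 on the left and -0.87 on the right. Over all genes these medians are 0.01 and -0.05. Both panels use the control arrays, with opposite sign, so they are not separate results.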

How the data were processed

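Gene expression in rat vessels was measured on 4 Agilent 1-colour arrays, 1 in each group. The deposited scanner files hold spot intensity: background-subtracted processed signals, median signals and background medians, with well-above-background and outlier flags. The authors' value table holds log2 values, which equalled log2 processed signals within 0.01 after an array-specific shift for 98.0% to 98.1% of probes. The file headers give Feature Extraction 10.7.1.1, and the submitters' processing notes give 12.1.1.1.

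Outlier-flagged spots were left out, spots of a probe were averaged on the log2 scale, and each array was centred on its 75th percentile over 45594 probes. A gene was read by its brightest probe among those well above background on at least 1 array, and a probe counted as well above background where at least 0.5 of its spots did. Probes were named through RefSeq accessions: 21107 probes had 1 gene and 24487 none. Additive fits used limma 3.58.1 in R 4.3.3, and the rest Python 3.11.15. Both steps were tested on simulated data. Normexp (offset 50) took the median signal, because the files have no mean signal column. Genes named are all members, and genes of the fixed lists past 2-fold in a comparison or picked by level, up to 4 a list. The members and lists were chosen with earlier results of these data known. Alternatives were other scalings, quantile normalization, normexp, the authors' table, averaging all probes of a gene, kept outlier spots and no filter. The number of arrays limits the precision.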

Additional observations from a re-analysis of the deposited data

Results flagged for a closer look

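The response of Ptges to Ang II ran in opposite directions in the genotypes. Its log2 ratio of Ang II over control was -0.82 in KO and 1.17 in WT, a difference of -1.98 (KO minus WT). Ptgs1 also read in opposite directions, at -0.30 in KO and 0.18 in WT, with a scanner error of 0.20 on each response. Its WT response was under that error, so its sign is not secured. The difference for Ptgs1 was -0.47, with a scanner error of 0.29. How many of all genes read in opposite directions was not counted, so opposite signs are not read as particular to these members. With 1 array in each group neither difference was tested.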

How the results depend on the processing

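Of 62 counts of members under the alternatives, 58 were within 1.5 times the reported one. Of the single member ratios 286 kept their side of 2-fold and, where under it, moved by no more than the scanner error; 8 moved by more, 1 passed 2-fold, 1 no longer did, and no ratio past 2-fold changed sign. With normexp background correction the count of members past 2-fold for WT Ang II over WT control was 0, since Ptges had 0.87. When all probes of a gene were averaged the count for KO Ang II over WT Ang II was 2, since Ptgs1 had 1.18. The additive fit of KO over WT called 2 members with trended, robust variance (1316 genes) and 2 with normexp (552 genes; limma adjusted p 0.0355 for Ptgs1 and 0.0468 for Ptgir), against 0 of 9387 genes as reported; 8 genes passed with the authors' table and 3 with genotype alone. Under normexp the ratios of KO control over WT control of Ptges and Ptgis, which were not past 2-fold, were -0.14 and -0.10, against 0.27 and 0.25 as reported. Normexp also gave 0.51 for Ptgs2 and -0.24 for Ptger4 in that comparison, -0.56 for Ptges and 0.16 for Ptger4 for KO Ang II over KO control, -0.17 for Tbxa2r for WT Ang II over WT control, and 0.05 for Ptger4 for KO minus WT response. The counts of all genes higher and lower by 2-fold under normexp were 29 and 8 for WT Ang II, 0 and 4 for KO Ang II, 28 and 87 for KO control over WT control, 18 and 137 for KO Ang II over WT Ang II, and 19 and 51 for the difference of responses. As reported they were 140 and 87, 17 and 72, 227 and 314, 176 and 423, and 109 and 247 in the same order. Without a filter on dim probes, in that order too, they were 719 and 794, 393 and 792, 891 and 945, 652 and 1129 and 1013 and 1465. The cause was not tested. No paired analysis was possible because each group has 1 array, so the groups share a single replicate number. Fits that leave out an array were not run; the additive fit would then have no residual degrees of freedom. Dim probes give bounds only.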
